A study of Mus musculus with 11 samples.

Results

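The T cell receptor genes measured here were 10 genes picked by name out of 21899 in an airway RNA-seq table: the CD3 chains Cd3d, Cd3e and Cd3g, the coreceptor chains Cd4, Cd8a and Cd8b1, the receptor-proximal kinase Lck, the costimulatory receptors Cd28 and Icos, and Foxp3, the transcription factor of regulatory T cells. All 10 were found in the table by their mouse Ensembl identifiers, and 9 of them, without Foxp3, averaged 0.5 FPKM or more and entered the statistical fit of 14004 genes. FPKM is the number of sequenced fragments per kilobase of exon, scaled to the fragment total of the library.

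The study modelled in mice an exacerbation of asthma that steroids do not control, and asked what GGsTop, an inhibitor of the enzyme γ-glutamyl transferase, did to it. All mice were wild-type male BALB/c aged 6 to 8 weeks. The OVA/LPS/Vehicle mice (4 libraries, labelled 12, 34, 56 and 78) received ovalbumin with alum into the peritoneum on days 0 and 7, ovalbumin through the nose from day 14 to day 17, lipopolysaccharide through the nose on days 19 and 21, and vehicle into the trachea from day 21 to day 23. The OVA/LPS/GGsTop mice (4 libraries, 1 to 4) had the same exposures with GGsTop at 0.5 mg/kg in place of vehicle, the PBS mice (3 libraries, 1 to 3) received PBS only, and tissue was taken on day 25. The sample labels name trachea, whereas the methods describe bluntly dissected airway without the trachea. Scgb1a1, the secretory protein of club cells, stood between 26145 and 47905 FPKM, so airway epithelium was present in every library. Nothing in the sources used here says whether a library came from 1 animal or from a pool, and p-values therefore measure only the spread between these libraries.

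The fragment totals implied by the FPKM were 15062757, 15502789 and 18632382 in PBS 1 to 3. They were 15501855, 15806695, 15941756 and 16710799 in OVA/LPS/Vehicle 12, 34, 56 and 78, and 15057817, 14513136, 15777202 and 14799640 in OVA/LPS/GGsTop 1 to 4. T cell transcripts were a thin slice of these airway libraries. The most abundant gene of the 10, Lck, rested on 171 to 938 fragments per library, Cd8a on 29 to 902 and Foxp3 on 12 to 62.

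T cells recognise peptides on MHC molecules through the T cell receptor, which reaches the cell surface only with the CD3 γ, δ, ε and ζ chains. CD4 and CD8 bind MHC class II and class I and bring the kinase LCK to the receptor, where it phosphorylates the CD3 chains. CD28 gives the first costimulatory signal and ICOS is displayed after activation, while FOXP3 marks the regulatory T cells that restrain the others. In allergic airways CD4+ T helper cells supply the cytokines that recruit eosinophils and drive mucus. In bulk tissue, fewer T cells and less RNA per T cell cannot be told apart.

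The CD3 genes lie together on chromosome 9. On GRCm38, Cd3g occupied chr9:44969572-44980431 on the minus strand and Cd3d chr9:44981786-44987339 on the plus strand, so that their annotated starts pointed away from each other across 1355 bases, and Cd3e followed at chr9:44998740-45009627 on the minus strand. The coreceptor genes Cd8b1 (chr6:71322788-71337494) and Cd8a (chr6:71373427-71379173) were neighbours on the plus strand, and Cd28 (chr1:60716800-60773359) and Icos (chr1:60977927-61000320) shared a stretch of chromosome 1. Cd4 was at chr6:124864692-124888221 and Lck at chr4:129548344-129573641, both on the minus strand, and Foxp3 at chrX:7573644-7595245 on the plus strand.

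Because the CD3 genes and Lck moved together from library to library, stretches before the starts of Cd3g, Cd3d and Lck are printed here, 5′ to 3′ on the strand of the gene, from the RefSeq promoter table on GRCm38.p6, which held 6 of the 10 genes. Bases inside annotated exons of the gene were left out. Capitals mark matches, on either strand, to 5 short motifs, which were chosen with the sequences in view and are spelled out after the sequences. Lck is given for its distal and its proximal promoter.
Cd3g, chr9:44980432-44980681, minus strand: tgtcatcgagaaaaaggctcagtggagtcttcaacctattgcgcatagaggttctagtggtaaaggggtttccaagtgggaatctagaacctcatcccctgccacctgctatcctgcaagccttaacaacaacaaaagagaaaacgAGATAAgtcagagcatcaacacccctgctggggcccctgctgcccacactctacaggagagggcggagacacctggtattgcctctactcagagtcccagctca
Cd3d, chr9:44981536-44981785, plus strand: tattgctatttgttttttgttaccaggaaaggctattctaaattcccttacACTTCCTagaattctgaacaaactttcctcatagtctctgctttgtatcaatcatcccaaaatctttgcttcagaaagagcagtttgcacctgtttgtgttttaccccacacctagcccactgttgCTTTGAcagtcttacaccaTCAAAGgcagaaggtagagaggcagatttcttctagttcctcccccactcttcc
Lck distal, chr4:129573642-129573891, minus strand: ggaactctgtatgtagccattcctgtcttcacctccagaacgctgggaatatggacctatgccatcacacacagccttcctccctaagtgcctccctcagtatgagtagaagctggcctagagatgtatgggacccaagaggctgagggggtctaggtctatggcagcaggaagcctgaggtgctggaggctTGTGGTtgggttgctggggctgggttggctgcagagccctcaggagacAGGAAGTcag
Lck proximal, chr4:129558392-129558622, minus strand: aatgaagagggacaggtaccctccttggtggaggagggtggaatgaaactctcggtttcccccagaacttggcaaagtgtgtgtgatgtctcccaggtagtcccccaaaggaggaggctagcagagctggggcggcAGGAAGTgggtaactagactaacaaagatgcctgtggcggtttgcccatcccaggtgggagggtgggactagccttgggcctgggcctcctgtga
The letters of the ETS motif, AGGAAGT, stood in Cd3d, on the reverse strand, and in both Lck promoters, and 7.69% of the 32851 promoters in the table held them in the same 250 bases. The RUNX letters searched were TGTGGT, which matched in the distal Lck promoter and in 14.05% of all promoters. For the GATA family the letters were AGATAA, found in Cd3g and in 9.99% of all promoters. For TCF/LEF they were CTTTGA, found in Cd3d once on each strand and in 13.8% of all promoters. The E-box letters were CAGCTG, held by 13.001% of all promoters, and matched in none of these stretches, and none of the 5 motifs matched in the 234 bases before the first exon of Cd3e, chr9:45009628-45009861. A match is only a run of letters, and binding was not measured.

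3 libraries stood apart in genes of lymphoid organs, and they have to be known before the T cell genes are read. Glycam1, a mucin-like ligand made by the high endothelial vessels of lymph nodes, was at 18.1 FPKM in PBS 2, 14.5 in OVA/LPS/Vehicle 12 and 21.5 in OVA/LPS/Vehicle 56. In the other 8 libraries it ranged from 0 to 4.17 FPKM. Ccl19, a chemokine of lymphoid stroma, was at 5.95, 4.32 and 7.09 FPKM in the same 3 libraries and at 0.153 to 1.38 elsewhere. These libraries were 1 of 3 PBS libraries, 2 of 4 OVA/LPS/Vehicle libraries and none of the OVA/LPS/GGsTop libraries.

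All 5 genes of the lymph node list (Glycam1, Madcam1, Ccl21a, Ccl19 and Cxcl13) were measured. Their summed level was 50.6, 169 and 41.0 FPKM in PBS 1 to 3, 124, 43.0, 133 and 49.97 in OVA/LPS/Vehicle 12, 34, 56 and 78, and 32.3, 54.2, 40.2 and 54.4 in OVA/LPS/GGsTop 1 to 4. Ccl21a, a chemokine that draws naive T cells into lymph nodes, was the most abundant of them. Glycam1 was at 0 in PBS 3 and OVA/LPS/GGsTop 3, and Madcam1 at 0 in PBS 1, PBS 3, OVA/LPS/Vehicle 78, OVA/LPS/GGsTop 1 and OVA/LPS/GGsTop 3.

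OVA/LPS/Vehicle 12 also held thymus genes. Dntt and Rag1, which immature lymphocytes use to build receptor genes, were at 13.8 and 8.53 FPKM there, whereas no other library exceeded 0.301 and 0.0976 FPKM. Rag2, the partner of Rag1, was at 1.11 FPKM there and at most at 0.0185 elsewhere, and Arpp21 at 0.448 against at most 0.0324. Ptcra, the surrogate chain of immature thymocytes, was at 0.151 FPKM there and at 0.161 in OVA/LPS/GGsTop 2, so it did not set the library apart. The summed level of these 5 thymocyte genes was 0.0353, 0.329 and 0.128 FPKM in PBS, 24.1, 0.0784, 0.380 and 0.246 in OVA/LPS/Vehicle, and 0.150, 0.236, 0.0722 and 0.0155 in OVA/LPS/GGsTop, in the order of the labels.

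Genes of thymic epithelium were highest in the same library. Prss16, a protease of the thymic cortex, was at 6.91 FPKM in OVA/LPS/Vehicle 12 and at most at 0.445 elsewhere, Ccl25 at 3.35 against at most 1.18, and Psmb11 at 0.781 against at most 0.0693. Foxn1, the master regulator of thymic epithelium, was at 0.181 FPKM there and at 0.137 in OVA/LPS/Vehicle 56, and Aire at 0.236 against as much as 0.361 in OVA/LPS/Vehicle 56. The list of 5 genes summed to 11.5 FPKM in OVA/LPS/Vehicle 12 and to between 0.623 and 1.61 in the other libraries, where Ccl25 was the most abundant gene.

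**Figure D1:**
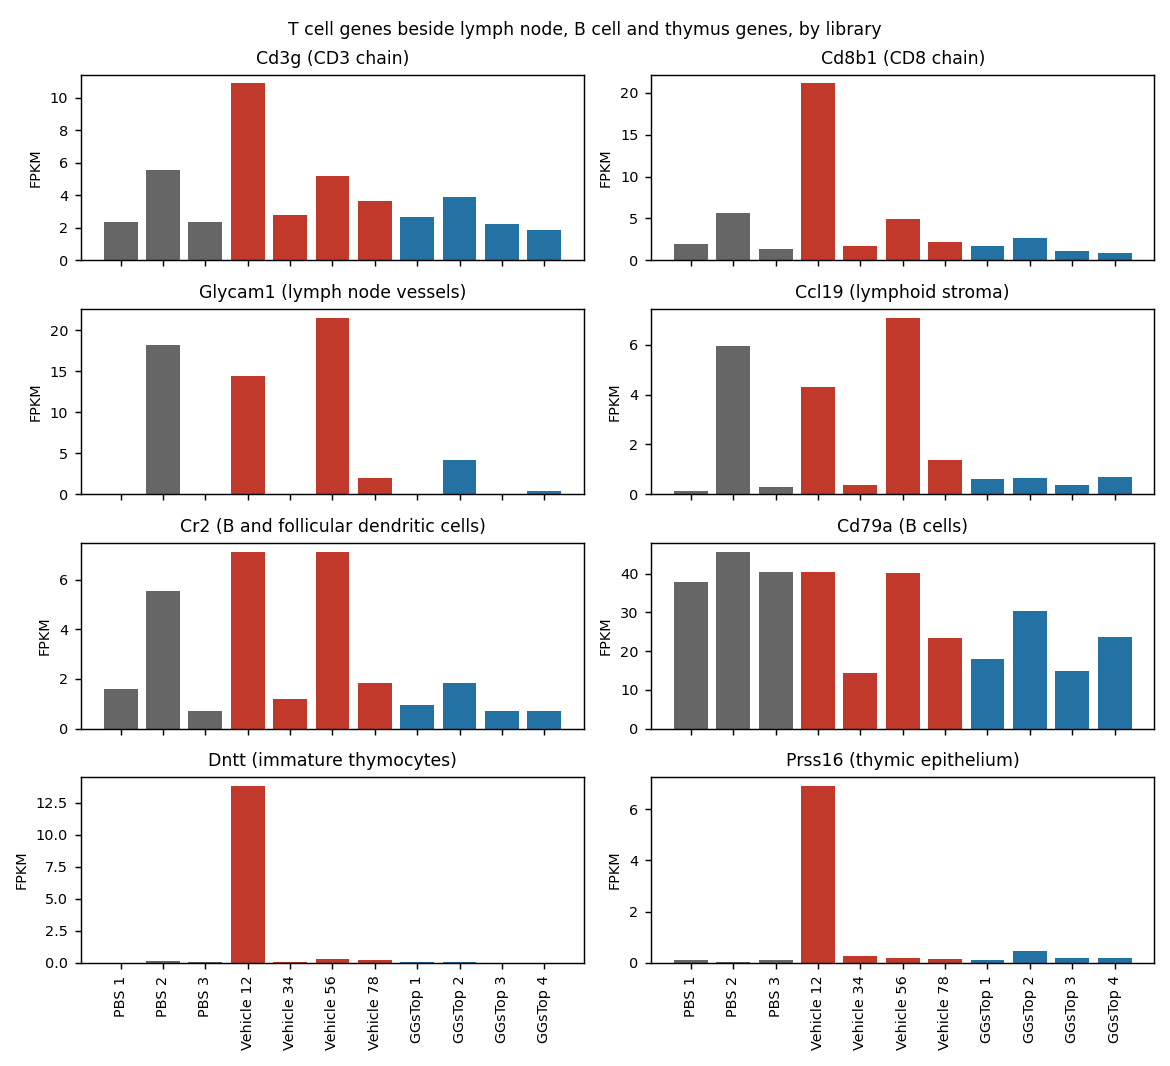
FPKM (linear axes from 0) of 2 T cell genes and 6 genes of lymph node, B cells and thymus, with a bar for each of the 4 OVA/LPS/GGsTop (blue), 4 OVA/LPS/Vehicle (red) and 3 PBS (grey) libraries. Cd3g and Cd8b1 are highest in PBS 2 and Vehicle 12 and 56, the libraries with Glycam1 at 18.1, 14.5 and 21.5 FPKM, and Dntt and Prss16 stand high in Vehicle 12 alone.

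The CD3 chains followed these libraries. Cd3d, the CD3 δ chain, was at 3.37, 6.25 and 3.70 FPKM in PBS 1 to 3. It was at 9.28, 2.72, 4.32 and 2.74 FPKM in OVA/LPS/Vehicle 12, 34, 56 and 78, and at 2.63, 3.53, 1.57 and 1.27 in OVA/LPS/GGsTop 1 to 4. Its 3 highest libraries were OVA/LPS/Vehicle 12, PBS 2 and OVA/LPS/Vehicle 56, and the groups overlapped. Cd3e, the CD3 ε chain, was at 1.46, 2.43 and 1.28 FPKM in PBS, at 3.91, 0.667, 1.80 and 1.20 in OVA/LPS/Vehicle, and at 1.12, 1.44, 0.715 and 0.778 in OVA/LPS/GGsTop. The same 3 libraries led, and the lowest value was that of OVA/LPS/Vehicle 34. Cd3g, the CD3 γ chain, was at 2.36, 5.54 and 2.35 FPKM in PBS, at 10.9, 2.79, 5.20 and 3.64 in OVA/LPS/Vehicle, and at 2.68, 3.88, 2.23 and 1.88 in OVA/LPS/GGsTop. Again OVA/LPS/Vehicle 12, PBS 2 and OVA/LPS/Vehicle 56 were the highest, in that order.

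Among the coreceptors the spread within a group was widest for the CD8 chains. Cd8a was at 1.24, 4.20 and 1.17 FPKM in PBS, at 15.999, 0.835, 2.86 and 1.37 in OVA/LPS/Vehicle, and at 1.17, 1.61, 1.10 and 0.539 in OVA/LPS/GGsTop. Its highest OVA/LPS/Vehicle library was 19.2 times its lowest. Cd8b1 was at 1.97, 5.70 and 1.34 FPKM in PBS, at 21.1, 1.66, 4.86 and 2.14 in OVA/LPS/Vehicle, and at 1.75, 2.60, 1.07 and 0.820 in OVA/LPS/GGsTop, with a factor of 12.7 between its highest and lowest OVA/LPS/Vehicle libraries. Most of that range was OVA/LPS/Vehicle 12, the library with Rag1 and Dntt and also with over 10 FPKM of Glycam1. Developing thymocytes are known to carry CD4 and CD8 together, and the source of the CD8 transcripts in this library was not tested. Without the 3 Glycam1 libraries, the highest of the remaining 8 libraries was 2.99 times the lowest for Cd8a and 3.17 times for Cd8b1. These 3 libraries are also the 3 highest for both genes, so leaving them out narrows the range by construction. Cd4 was at 2.60, 5.66 and 3.65 FPKM in PBS, at 11.4, 2.06, 4.48 and 3.34 in OVA/LPS/Vehicle, and at 3.01, 3.33, 3.11 and 2.28 in OVA/LPS/GGsTop, and kept the same order of its 3 highest libraries.

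Lck was the most abundant of the 10 genes. It was at 5.71, 10.5 and 8.23 FPKM in PBS, at 20.7, 3.95, 10.1 and 5.52 in OVA/LPS/Vehicle, and at 5.28, 5.90, 4.46 and 3.94 in OVA/LPS/GGsTop. The OVA/LPS/GGsTop libraries were the most even, and every group reached into the range of the others. Cd28, the main costimulatory receptor, was at 0.781, 1.84 and 0.579 FPKM in PBS, at 2.97, 0.723, 1.94 and 0.762 in OVA/LPS/Vehicle, and at 0.890, 1.05, 0.652 and 0.728 in OVA/LPS/GGsTop. In all, 8 of the 10 genes had PBS 2, OVA/LPS/Vehicle 12 and OVA/LPS/Vehicle 56 as their 3 highest libraries.

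Icos and Foxp3 were the exceptions, and both were highest in PBS 2. Icos was at 1.14, 2.16 and 0.469 FPKM in PBS, at 2.07, 1.11, 1.96 and 2.04 in OVA/LPS/Vehicle, and at 1.61, 1.27, 1.33 and 1.02 in OVA/LPS/GGsTop. Here OVA/LPS/Vehicle 78, which had little Glycam1 (1.94 FPKM), stood beside OVA/LPS/Vehicle 12 and 56, and OVA/LPS/Vehicle 34 lay below them. Foxp3 was at 0.334, 0.874 and 0.364 FPKM in PBS, at 0.493, 0.166, 0.370 and 0.288 in OVA/LPS/Vehicle, and at 0.464, 0.512, 0.443 and 0.207 in OVA/LPS/GGsTop. After PBS 2, its next highest library was OVA/LPS/GGsTop 2, and OVA/LPS/Vehicle 34 was the lowest.

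**Figure D2:**
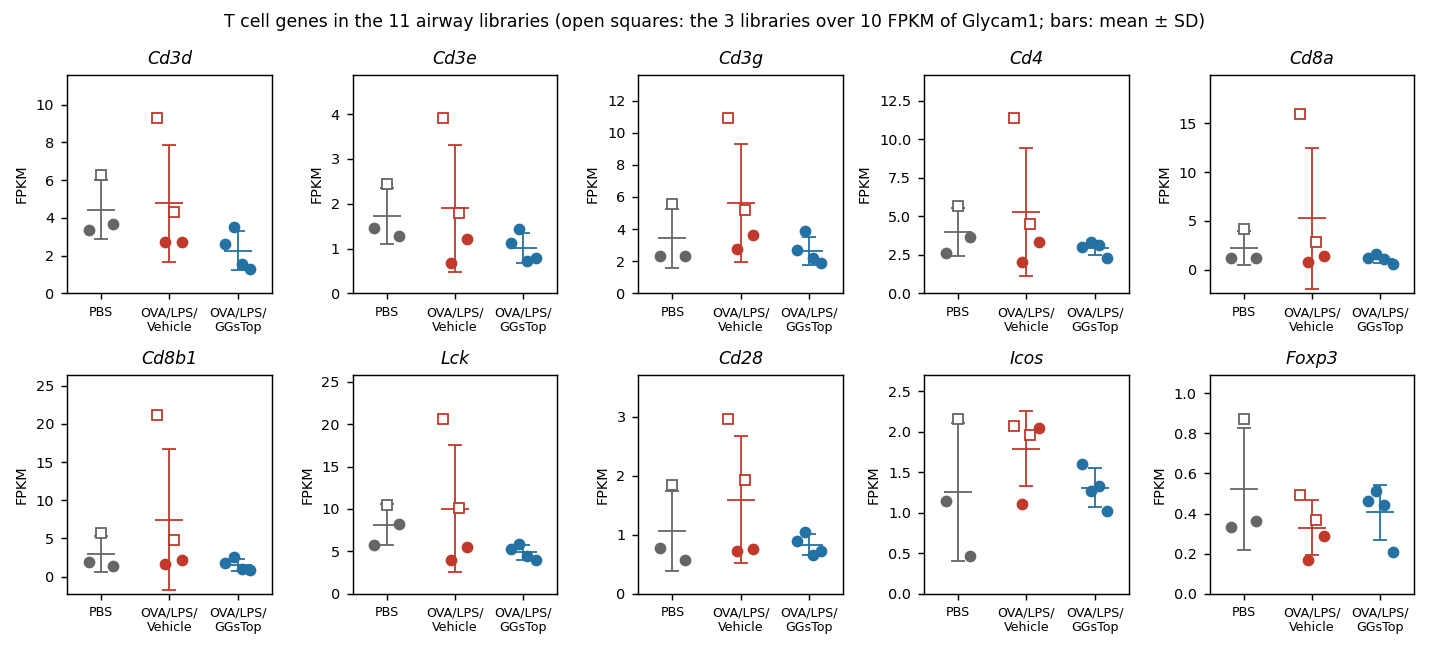
FPKM (linear axes) of each of the 10 T cell genes in 4 OVA/LPS/GGsTop, 4 OVA/LPS/Vehicle and 3 PBS libraries, with the mean and SD of each group as bars and the 3 libraries over 10 FPKM of Glycam1 as open squares. The open squares are the 3 highest values in 8 of the 10 panels.

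In order of mean FPKM over the 11 libraries, which is a scale per length of exon, Lck (7.66) came first, followed by Cd8b1 (4.10), Cd4 (4.08), Cd3g (3.95), Cd3d (3.76), Cd8a (2.92), Cd3e (1.53), Icos (1.47), Cd28 (1.17) and Foxp3 (0.410). Lck exceeded Cd8b1 in 10 of 11 libraries and Cd28 exceeded Foxp3 in all 11. Cd3d exceeded Cd8a in 10 libraries, Icos exceeded Cd28 in 9, and Cd3g exceeded Cd3d and Cd8a exceeded Cd3e in 8 each. The other neighbours had no steady order. Cd8b1 was above Cd4 in 3 of 11 libraries although its mean was higher, Cd4 was above Cd3g in 7 and Cd3e above Icos in 5. The places of the CD8 chains lean on OVA/LPS/Vehicle 12. Cd8b1 and Cd8a were at 21.1 and 15.999 FPKM there and at most at 5.70 and 4.20 elsewhere.

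The first comparison, OVA/LPS/Vehicle against PBS, asks what the exacerbation model did to the airway. None of the 9 T cell genes tested passed an adjusted p of 0.05 by limma with Benjamini-Hochberg adjustment, in a comparison in which 38% of the 14004 genes did. At an unadjusted p under 0.05 the count was also 0 of 9, against 49.6% of all genes, and limma voom on recovered fragments called 0 as well. The log2 fold changes, here and below on the scale of log2(FPKM + 1), were positive for 7 and negative for 2 of the 9 genes, with a median of 0.29 beside -0.015 over all genes. That median was 0.023 with the GC correction (6 positive, 3 negative). It was -0.20 without OVA/LPS/Vehicle 12 (4 positive, 5 negative) and 0.54 without PBS 2 (9 positive). The 2 groups overlapped for all 10 genes, whereas 44.1% of the genes tested had groups that did not. The mitochondrially encoded genes, a rough sign of RNA and tissue quality, took 19.5, 14.5, 17.4 and 16.3% of the summed FPKM in OVA/LPS/Vehicle, 6.39, 10.1 and 2.08% in PBS and 10.1, 10.9, 7.40 and 11.1% in OVA/LPS/GGsTop, so that every OVA/LPS/Vehicle library lay above all others. The slope of expression on GC content was below 0 in all 4 OVA/LPS/Vehicle libraries and above 0 in the other 7, and the part of either in the calls against PBS was not tested beyond the GC correction and a scaling that left out the mitochondrial genes.

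For the CD3 chains the estimates were -0.013 for Cd3d (95% interval -0.80 to 0.77), -0.0088 for Cd3e (-0.68 to 0.66) and 0.52 for Cd3g (-0.28 to 1.32). Each interval held values of either sign, so the direction of a difference was not settled with these libraries. The coreceptors had positive estimates, 0.19 ± 0.38 (SE) for Cd4, 0.49 ± 0.63 for Cd8a and 0.67 ± 0.63 for Cd8b1, each smaller than or close to its error. Lck differed by 0.071 ± 0.40 and Cd28 by 0.29 ± 0.29.

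Icos came closest to a difference. Its mean was 1.79 ± 0.460 FPKM (SD, n = 4) in OVA/LPS/Vehicle and 1.26 ± 0.853 (SD, n = 3) in PBS, a log2 fold change of 0.36 ± 0.23 (adjusted p = 0.227, limma). The estimate depended on single PBS libraries. Without PBS 2, the PBS library with lymph node genes, the log2 fold change was 0.64 ± 0.20 and the adjusted p 0.0243, and without PBS 3 it was 0.085 ± 0.20 with an adjusted p of 0.787. After a correction for the GC content of the exons it was 0.013 ± 0.19 (adjusted p = 0.965), while without all 3 Glycam1 libraries it was 0.51 ± 0.24 with an adjusted p of 0.130. In that smaller set 0 of the 9 T cell genes passed, beside 29.9% of all genes. Foxp3 stood at -0.18 on the log2 scale in OVA/LPS/Vehicle against PBS, with a p of 0.4 by an exact two-sided permutation test, whose smallest possible value for 4 against 3 libraries is 0.0571.

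The second comparison, OVA/LPS/GGsTop relative to OVA/LPS/Vehicle, asks what the inhibitor changed. All 9 T cell genes had lower estimates in OVA/LPS/GGsTop, with a median log2 fold change of -0.68 beside 0.031 over all genes, but 0 of 9 passed the adjusted threshold, which 8.71% of all genes did (6.9% higher and 1.81% lower). At an unadjusted p under 0.05 there was 1 of 9, Cd3d, whose 95% interval ran from -1.47 to -0.021, against 30.8% of all genes, and limma voom on recovered fragments had 0 of 9 at that level. This count moved with single libraries: it was 7 of 9 without OVA/LPS/Vehicle 34 (Lck, Cd3g, Cd4, Cd3e, Cd3d, Cd8b1 and Cd8a, beside 24.9% of all genes), 3 without OVA/LPS/Vehicle 78 and 0 without OVA/LPS/Vehicle 12 or 56, and in each of these sets 0 of 9 passed after adjustment. The groups overlapped for all 10 genes, whereas 29.7% of all genes had groups that did not. The OVA/LPS/Vehicle libraries serve in this comparison and in the first, so their estimates are not independent of each other.

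The estimates were lowest for the CD8 chains, at -1.22 ± 0.58 for Cd8b1 (adjusted p = 0.181) and -0.99 ± 0.58 for Cd8a (adjusted p = 0.262). Those of the CD3 chains were -0.75 ± 0.33 for Cd3d (adjusted p = 0.152), -0.74 ± 0.34 for Cd3g (adjusted p = 0.165) and -0.42 ± 0.28 for Cd3e (adjusted p = 0.328). Lck stood at -0.68 ± 0.37, Cd4 at -0.48 ± 0.35, Cd28 at -0.42 ± 0.27 and Icos at -0.27 ± 0.21. Foxp3 was the exception in sign, higher in OVA/LPS/GGsTop by 0.082, with an exact two-sided permutation p of 0.429.

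All 9 estimates stayed negative when any 1 OVA/LPS/Vehicle or OVA/LPS/GGsTop library was left out. Leaving out a PBS library cannot change them. OVA/LPS/Vehicle 12 and 56 had over 10 FPKM of Glycam1 and no OVA/LPS/GGsTop library did. When PBS 2 and OVA/LPS/Vehicle 12 and 56 were left out, a choice made after seeing the data, 4 of the 9 estimates were positive and 5 negative, with a median of -0.011. Cd8b1 moved to -0.23, Cd8a to -0.011, Cd3d to -0.25, Cd3g to -0.22 and Icos to -0.14. Cd3e (0.057), Lck (0.042), Cd4 (0.10) and Cd28 (0.065) changed sign. These 3 libraries are also the highest in 8 of the 10 T cell genes, so leaving them out lowers the OVA/LPS/Vehicle mean of those 8 by construction, and the part of lymphoid tissue in the direction was not tested. In that smaller set, with 2 OVA/LPS/Vehicle libraries left, no gene of 14004 passed an adjusted p of 0.05, 2830 had an unadjusted p under 0.05, and none of the 9 T cell genes was among them. Leaving out OVA/LPS/Vehicle 12 alone brought Cd8b1 to -0.57 and Cd8a to -0.31. The others moved to -0.42 (Cd3d), -0.41 (Cd3g), -0.28 (Lck), -0.21 (Icos), -0.19 (Cd28), -0.13 (Cd3e) and -0.093 (Cd4). The median of the 9 was then -0.28, whereas it was -0.91 when OVA/LPS/Vehicle 34 alone was left out.

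**Figure D3:**
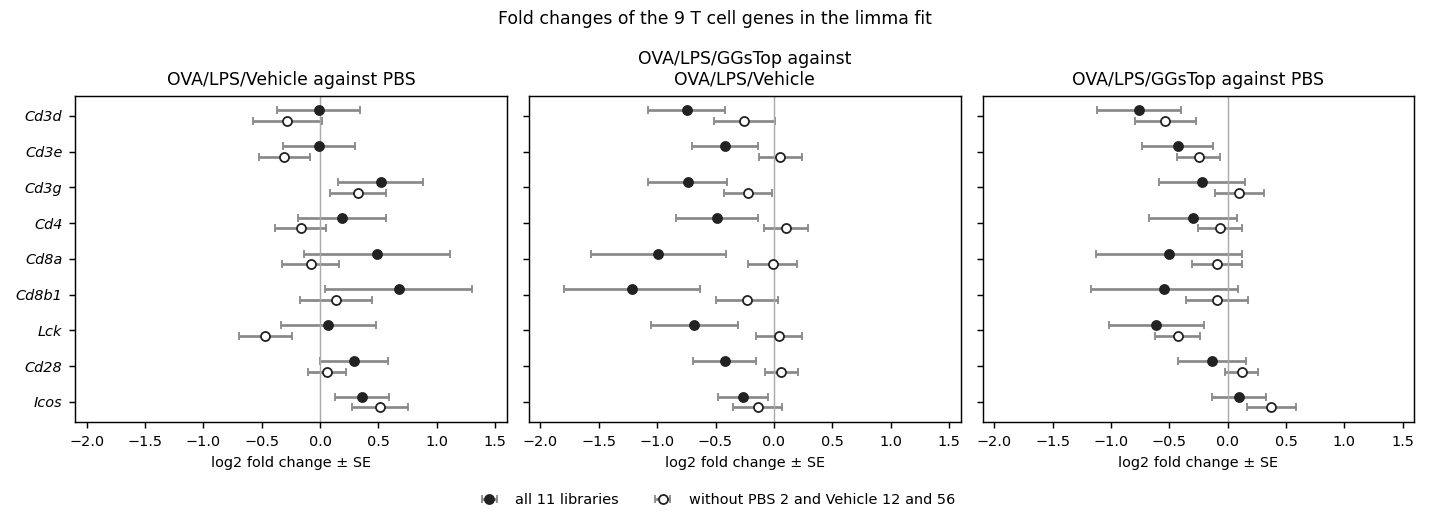
Log2 fold changes (points) with their standard errors (bars) of the 9 T cell genes in the limma fit, for the 3 comparisons, with all 11 libraries (filled) and without PBS 2 and OVA/LPS/Vehicle 12 and 56 (open). In the comparison of OVA/LPS/GGsTop with OVA/LPS/Vehicle all 9 filled points lie below 0, and the open points lie on both sides of it, 4 above and 5 below.

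The third comparison, OVA/LPS/GGsTop against PBS, sets the treated mice beside unexposed ones. Its PBS libraries also serve in the first comparison, so the estimates of these comparisons are not independent of each other. Of the 9 genes 0 passed the adjusted threshold, beside 2.88% of all genes, and 0 had an unadjusted p under 0.05 by limma or by limma voom on recovered fragments, beside 20.5%. Their groups overlapped for all 10 genes, where 14.8% of all genes did not. Cd3d had the lowest estimate, -0.76 ± 0.36 (adjusted p = 0.257), followed by Lck at -0.61 ± 0.40, and Icos alone was positive, at 0.095 ± 0.23. Without the 3 Glycam1 libraries 0 of 9 passed, beside 5.42% of all genes. Foxp3 stood at -0.10 on the log2 scale (exact two-sided permutation p = 0.629).

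PBS and OVA/LPS/GGsTop carry the same replicate numbers 1 to 3, and libraries of the same number deviated together (correlations of 0.367, 0.427 and 0.428). Some libraries of different number did so more strongly, PBS 2 with OVA/LPS/GGsTop 4 (0.637) and PBS 1 with OVA/LPS/GGsTop 3 (0.457). Others of different number went the other way, down to -0.693, and the labels do not say what the number marks. With the replicate number as a block 95 genes passed in this comparison, and 413 with a correction for GC content added. That fit leaves out the OVA/LPS/Vehicle libraries, and OVA/LPS/GGsTop 4, which has no PBS partner, adds nothing to it, so the 403 genes of the fit to all libraries are not its counterpart. The same 6 libraries without a block gave 14 genes, and 36 with the GC correction. None of the 9 T cell genes passed in any of these fits. Lck, Cd3e and Cd3d had an unadjusted p under 0.05 with the block, 3 of 9 beside 16.1% of all genes, and Lck alone without it, beside 10.8%.

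Ratios of T cell genes within a library describe the make-up of its T cell transcripts, and 4 of them were compared in 12 tests. Cd4 to Cd8a stood at 2.10, 1.35 and 3.13 in PBS, at 0.710, 2.46, 1.57 and 2.45 in OVA/LPS/Vehicle, and at 2.58, 2.07, 2.84 and 4.23 in OVA/LPS/GGsTop. Only OVA/LPS/Vehicle 12, the library with thymus genes, had more Cd8a than Cd4 per length. The means of 1.80 ± 0.836 (SD, n = 4) in OVA/LPS/Vehicle and 2.93 ± 0.924 (SD, n = 4) in OVA/LPS/GGsTop differed by less than could be called (exact permutation p = 0.143, adjusted p = 0.343).

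The share of Foxp3 beside Cd3e was the single ratio whose groups did not overlap. It was at 0.126, 0.249, 0.206 and 0.239 in OVA/LPS/Vehicle and at 0.413, 0.357, 0.620 and 0.266 in OVA/LPS/GGsTop, and PBS lay between and across them at 0.228, 0.359 and 0.285. The means were 0.205 ± 0.0556 (SD, n = 4) and 0.414 ± 0.150 (SD, n = 4), with an exact two-sided permutation p of 0.0286, the smallest that 4 against 4 allows, and 0.343 after adjustment over the 12 tests. The ratio sets 12 to 35 fragments of Foxp3 per library of these groups against 43 to 247 of Cd3e. The transcripts of Foxp3 and Cd3e also differ in GC content (55.0% and 44.5%), and the slope of expression on GC content was -0.261 to -0.19 log2 units per 10 GC points in OVA/LPS/Vehicle and 0.0464 to 0.108 in OVA/LPS/GGsTop, and 0.0611, 0.0484 and 0.533 in PBS 1 to 3. The part of GC content in the ratio was not tested.

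Icos and Cd28 beside Cd3e gave overlapping groups. Icos to Cd3e averaged 0.679 ± 0.275 (SD, n = 3) in PBS, 1.24 ± 0.552 (SD, n = 4) in OVA/LPS/Vehicle and 1.37 ± 0.403 (SD, n = 4) in OVA/LPS/GGsTop. Cd28 to Cd3e averaged 0.581 ± 0.158 (SD, n = 3), 0.889 ± 0.227 (SD, n = 4) and 0.842 ± 0.0984 (SD, n = 4) in the same order. Both were higher in each exposed group than in PBS on average, and the adjusted p of the exact permutation tests was 0.343 or higher in every case.

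**Figure D4:**
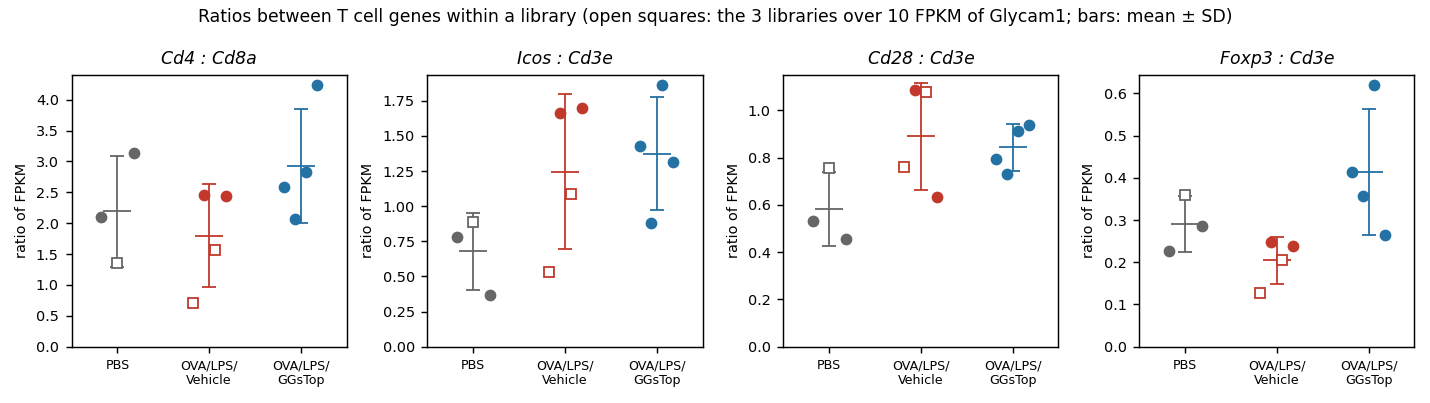
Ratios of FPKM within each library (linear axes from 0) for Cd4 to Cd8a and for Icos, Cd28 and Foxp3 to Cd3e, in 4 OVA/LPS/GGsTop, 4 OVA/LPS/Vehicle and 3 PBS libraries, with the mean and SD of each group as bars and the 3 libraries over 10 FPKM of Glycam1 as open squares. Foxp3 to Cd3e is 0.266 or more in every OVA/LPS/GGsTop library and 0.249 or less in every OVA/LPS/Vehicle library.

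Across the wider T cell machinery, 61 of 65 listed genes were measured and 55 entered the fit. In OVA/LPS/Vehicle against PBS 5 were higher and 9 lower, 25.5% of the 55 beside 38% of all genes (15.9% higher and 22.1% lower). In OVA/LPS/GGsTop relative to OVA/LPS/Vehicle none passed, beside 8.71%, and in OVA/LPS/GGsTop against PBS 2 were lower, 3.64% beside 2.88% of all genes in either direction and 0.821% lower. Of the receptor itself only Cd247, the CD3 ζ chain, was measured among the listed genes. It changed in none of the comparisons past the threshold, at -0.077, -0.35 and -0.43 on the log2 scale, and the constant regions of the receptor chains were not analysed here.

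Among 19 genes of proximal receptor signalling, 16 were in the fit and 3 fell in OVA/LPS/Vehicle against PBS. Plcg1, a phospholipase that many cell types use, fell by 0.69 on the log2 scale (adjusted p = 0.0108), and Csk, the kinase that restrains LCK, by 0.59 (adjusted p = 0.0118). Zap70, the kinase that binds phosphorylated CD3 chains, and Lat, the adaptor it phosphorylates, did not pass, with Zap70 at -0.12 ± 0.20. In the other comparisons the smallest p belonged to Prkcq and Plcg1 (-0.39 and 0.39, OVA/LPS/GGsTop relative to OVA/LPS/Vehicle) and, among the genes named here, to Grap2 (-0.70, OVA/LPS/GGsTop against PBS), none of which passed. Plcg1 and Csk were not called after the GC correction, whereas the third gene, which is not named here, was still called lower. Without the 3 Glycam1 libraries all 3 were called lower, and Grap2 as well, beside 29.9% of all genes.

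The GC correction, which removes from each library a smooth trend of expression on the GC content of the exons, was used as an alternative throughout. All 14 other costimulatory and inhibitory receptors were in the fit. In OVA/LPS/Vehicle against PBS, Tnfrsf9 (4-1BB) rose by 0.65 on the log2 scale (adjusted p = 0.0222) and Tigit, an inhibitory receptor, by 0.70 (adjusted p = 0.0476), whereas Tnfrsf18 (GITR), which regulatory T cells carry at high level, fell by 0.71 (adjusted p = 0.00772). Tnfrsf18 was at 1.44, 1.99 and 1.51 FPKM in PBS and at 0.508, 0.415, 0.576 and 1.02 in OVA/LPS/Vehicle. After the GC correction Tigit and Pdcd1 passed, and Tnfrsf9 and Tnfrsf18 did not. Without the 3 Glycam1 libraries none of the 3 passed, and Cd27 did, lower. No receptor passed in the other comparisons, where the smallest p were those of Tnfrsf9 (-0.49) and Tnfrsf18 (0.39) for OVA/LPS/GGsTop relative to OVA/LPS/Vehicle and of Havcr2 (0.41) and Tigit (0.59) for OVA/LPS/GGsTop against PBS.

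On the side of the presenting cells, all 5 ligands were in the fit. Icosl, the ligand of ICOS, was at 9.48, 11.8 and 8.86 FPKM in PBS, at 8.39, 6.15, 7.43 and 6.72 in OVA/LPS/Vehicle and at 10.6, 8.69, 11.1 and 8.48 in OVA/LPS/GGsTop. It fell in OVA/LPS/Vehicle against PBS by 0.43 on the log2 scale (adjusted p = 0.0289), and its higher level in OVA/LPS/GGsTop than in OVA/LPS/Vehicle, 0.39 ± 0.13, did not pass (adjusted p = 0.0704). The fall was not called after the GC correction or without the 3 Glycam1 libraries. In the latter set PBS 1 and 3, at 9.48 and 8.86 FPKM, still lay above OVA/LPS/Vehicle 34 and 78, at 6.15 and 6.72. Pdcd1lg2 (PD-L2) and Cd80 had positive estimates in OVA/LPS/Vehicle against PBS, 0.42 and 0.30, with adjusted p of 0.0935 and 0.0999.

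Of 7 genes of regulatory T cells other than Foxp3, 5 were in the fit. Ikzf2 (Helios) rose in OVA/LPS/Vehicle against PBS by 0.71 on the log2 scale (adjusted p = 0.00779). Ikzf4 (Eos) was at 2.70, 1.07 and 2.58 FPKM in PBS, at 0.869, 0.676, 0.660 and 0.815 in OVA/LPS/Vehicle and at 0.668, 0.565, 0.510 and 0.607 in OVA/LPS/GGsTop. It fell in both exposed groups against PBS, by 0.78 (adjusted p = 0.00901) and 0.93 (adjusted p = 0.0254). Lrrc32 (GARP), which platelets and endothelium also carry, fell in OVA/LPS/Vehicle against PBS by 0.90 on the log2 scale (adjusted p = 0.00916) and was higher in OVA/LPS/GGsTop than in OVA/LPS/Vehicle by 0.67 ± 0.19 without passing (adjusted p = 0.0524). After the GC correction Ikzf4 alone was called against PBS, in both exposed groups. The list thus moved in different directions, and Il2ra, the high-affinity chain of the interleukin-2 receptor, did not pass (0.40, -0.25 and 0.15 in the order of the comparisons).

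Transcription factors of the T cell lineages gave 7 of 8 genes in the fit. Maf, which T follicular and T helper cells as well as macrophages use, rose by 0.57 on the log2 scale in OVA/LPS/Vehicle against PBS (adjusted p = 0.0109), and Zbtb7b (ThPOK), which commits cells to the CD4 lineage, fell by 0.53 (adjusted p = 0.0206). After the GC correction Maf was called and Zbtb7b was not, and without the 3 Glycam1 libraries both were called and Tbx21 (T-bet), the factor of type 1 helper cells, was called lower as well. With all libraries Tbx21 was lower in OVA/LPS/GGsTop than in PBS by 0.63 ± 0.18 and did not pass (adjusted p = 0.0766). Gata3, the factor of type 2 helper cells, was at -0.22, -0.27 and -0.49 in the 3 comparisons and passed in none.

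Naive and recirculating T cell genes, 7 of 7 in the fit, included 1 that passed against PBS in both exposed groups. Ccr7, the receptor that leads lymphocytes and dendritic cells to lymph nodes, was at 15.1, 16.7 and 17.5 FPKM in PBS, at 8.90, 5.12, 9.23 and 4.39 in OVA/LPS/Vehicle and at 5.81, 5.85, 5.26 and 4.92 in OVA/LPS/GGsTop. Within OVA/LPS/Vehicle it was higher in the 2 Glycam1 libraries, yet every exposed library lay below every PBS library. Groups did not overlap for 44.1% of all genes in OVA/LPS/Vehicle against PBS and for 14.8% in OVA/LPS/GGsTop against PBS. Ccr7 fell by 1.20 on the log2 scale in OVA/LPS/Vehicle (adjusted p = 0.00397, limma) and by 1.43 in OVA/LPS/GGsTop (adjusted p = 0.0100). It was called in both after the GC correction and without the 3 Glycam1 libraries. Il7r, the interleukin-7 receptor, rose in OVA/LPS/Vehicle against PBS by 0.72 (adjusted p = 0.0409), a call that was lost with the GC correction and without OVA/LPS/Vehicle 12 alone, and held without the 3 Glycam1 libraries (adjusted p = 0.0492). It was at 3.56, 5.63 and 2.08 FPKM in PBS. In OVA/LPS/Vehicle 12 it was at 6.83, inside the range of 5.03 to 7.61 of libraries 34, 56 and 78. Lef1 stood at -0.49 ± 0.18 in OVA/LPS/GGsTop relative to OVA/LPS/Vehicle (adjusted p = 0.104).

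B cell markers moved partly with the same libraries. All 7 listed genes, among them Ms4a1, Cd79a, Cd79b, Pax5, Cr2 and Fcer2a, were measured, none was at 0, and Cd79a was the most abundant. Their sum was 108, 124 and 103 FPKM in PBS, 119, 40.1, 115 and 60.0 in OVA/LPS/Vehicle, and 46.8, 69.5, 35.5 and 57.0 in OVA/LPS/GGsTop. Unlike the CD3 chains, it was 103 FPKM or more in all 3 PBS libraries as well as in OVA/LPS/Vehicle 12 and 56. Cr2, the complement receptor of B cells and follicular dendritic cells, was at 5.56, 7.14 and 7.12 FPKM in PBS 2 and OVA/LPS/Vehicle 12 and 56 and at most at 1.84 elsewhere. No B cell gene passed in any comparison with all libraries, with Cd79b at -0.57 in OVA/LPS/Vehicle against PBS and Pax5 at -0.999 and Fcer2a at -1.47 in OVA/LPS/GGsTop against PBS. Without the 3 Glycam1 libraries Fcer2a, Pax5, Cd79b and Cd79a were called lower in OVA/LPS/Vehicle than in PBS, and the first 3 of them also in OVA/LPS/GGsTop. In that set 29.9% of all genes passed in OVA/LPS/Vehicle against PBS and 5.42% in OVA/LPS/GGsTop against PBS. This choice was made after seeing the data. It left out OVA/LPS/Vehicle 12 and 56, which had the highest B cell sums of their group, so the OVA/LPS/Vehicle mean fell by construction. Ms4a1 was at 0.62, -1.15 and -0.53 in the 3 comparisons.

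Of the 5 NK cell genes listed, 2 were in the fit, Prf1 and Ncr1, and Klra8 was at 0 in every library. Prf1, perforin, which CD8 T cells also carry, was at 2.88, 3.05 and 2.70 FPKM in PBS, at 1.57, 1.18, 1.24 and 0.787 in OVA/LPS/Vehicle and at 1.03, 0.987, 1.08 and 0.889 in OVA/LPS/GGsTop, and fell by 0.83 and 0.96 on the log2 scale against PBS (adjusted p = 0.00348 and 0.00607). Prf1 did not pass in OVA/LPS/GGsTop relative to OVA/LPS/Vehicle (-0.13 ± 0.12), nor Ncr1 in OVA/LPS/Vehicle against PBS (-0.25 ± 0.15), where it was called lower after the GC correction. Ncr1 (NKp46), the most abundant of the list, fell in OVA/LPS/GGsTop relative to OVA/LPS/Vehicle by 0.54 (adjusted p = 0.0406) and against PBS by 0.80 (adjusted p = 0.0240). The call against OVA/LPS/Vehicle was lost with the GC correction and without the 3 Glycam1 libraries. In the latter set no gene of 14004 passed in that comparison. There Ncr1 stood at 3.12 and 2.02 FPKM in OVA/LPS/Vehicle 34 and 78, beside 1.38 to 1.71 in OVA/LPS/GGsTop. The 5 NK genes summed to 8.76, 6.61 and 6.54 FPKM in PBS, 4.90, 4.70, 5.23 and 3.41 in OVA/LPS/Vehicle, and 3.09, 2.98, 3.29 and 3.02 in OVA/LPS/GGsTop, an order that did not follow Glycam1. The difference between these changes and those of the T cell genes was not tested.

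Other cells and tissues were uneven as well. The dendritic cell list (most abundant gene Itgax) had no call. Macrophage genes gave C1qa higher and Csf1r lower in OVA/LPS/Vehicle against PBS, and Csf1r higher in OVA/LPS/GGsTop relative to OVA/LPS/Vehicle. Of the list of γδ T cells and innate lymphoid cells 3 of 5 genes were measured, with Sox13 the most abundant. Its gene Il1rl1 (the interleukin-33 receptor) rose against PBS in OVA/LPS/Vehicle by 0.55 (adjusted p = 0.0351) and in OVA/LPS/GGsTop by 0.78 (adjusted p = 0.0453). With the GC correction neither Il1rl1 call held, nor did the Csf1r calls, while C1qa was still called in OVA/LPS/Vehicle against PBS. Without the 3 Glycam1 libraries both Il1rl1 calls held, and no macrophage gene was called in any comparison. Airway epithelium gave 3 genes higher and alveolar epithelium (most abundant gene Sftpc) 2 lower in OVA/LPS/Vehicle against PBS, and 2 airway epithelium genes, Foxj1 and Muc5b, were also higher in OVA/LPS/GGsTop than in PBS. Thyroid and parathyroid genes were high in OVA/LPS/Vehicle 12, 34 and 56, where Tg, thyroglobulin, was at 90.6, 166 and 303 FPKM, and at most at 1.44 in other libraries. Tg was called higher in OVA/LPS/Vehicle against PBS and lower in OVA/LPS/GGsTop relative to OVA/LPS/Vehicle. With the GC correction the first of these calls held and the second was lost. Neither was called without the 3 Glycam1 libraries, which include OVA/LPS/Vehicle 12 and 56, and there no gene at all passed in the second comparison. Cartilage (Chad), fat (Cidec) and smooth muscle (Acta2) had no call in any comparison, and skeletal muscle (Ckm) had 1 gene, Acta1, higher in OVA/LPS/Vehicle than in PBS. The part of these cells and tissues in the T cell results was not tested.

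The genes whose pattern over the 11 libraries was most like the mean of the CD3 chains were Ikzf1 (Pearson r = 0.976), Skap1 (0.971), Rasgrp1 (0.971), Cd5 (0.966), Cd6 (0.953), Il21r (0.949), Bcl11b (0.947), Satb1 (0.934), Prkcb (0.934) and Lat (0.931), on log2(FPKM + 1). These values describe libraries that share tissue make-up and carry no test, and OVA/LPS/Vehicle 12 weighs heavily in them: without it, over 10 libraries, Ikzf1 was at 0.967, Bcl11b at 0.877 and Lat at 0.840. Among the 10 T cell genes outside CD3, Cd8b1 (0.976) and Cd8a (0.961) followed the CD3 mean most closely, Cd28 was at 0.925, and Icos stood apart at 0.581. Ikzf1 itself, the lymphoid transcription factor Ikaros, was at 7.93, 10.2 and 6.74 FPKM in PBS, at 14.3, 5.87, 10.5 and 7.26 in OVA/LPS/Vehicle and at 6.55, 8.19, 5.37 and 4.71 in OVA/LPS/GGsTop, with the same 3 libraries highest.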

How the data were processed

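The authors deposited 1 table of FPKM for 21899 genes in 11 libraries, and FPKM is the only unit used. Per the labels, the submitters' processing notes name cutadapt 1.15, HISAT2 2.0.5, HTSeq 0.9.1 and the mm39 build; counting strand and annotation are not given in the sources used here. Coordinates, exon lengths and GC content came from GENCODE M21 on GRCm38, another build, so no deposited coordinate was used; 21846 identifiers matched. Low FPKM values were whole multiples of a step in each library, which gave whole fragments in every library for 97.8% of genes (tolerance 0.05 fragments), and from them the fragment totals. One fragment on 1 kb was worth 0.0537 to 0.0689 FPKM.

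Tests were run with limma 3.58.1 (R 4.3.3) on log2(FPKM + 1) over all 11 libraries, with a mean-variance trend, for 14004 genes averaging 0.5 FPKM or more, with Benjamini-Hochberg adjustment over all of them at 0.05; the pseudocount understates changes of low genes. Foxp3 and the ratios were tested by exact two-sided permutation. Scripts were tested on simulated data. Alternatives, whose effects are given in the closing section, were the pseudocount, the filter, 3 scalings, no mean-variance trend, limma voom on recovered fragments, array weights, fits to 2 groups, a correction for GC content, leaving out each library and the replicate block; leaving out the 3 libraries over 10 FPKM of Glycam1, and fitting only PBS 1 to 3 and OVA/LPS/GGsTop 1 to 3 without the block, were chosen after seeing the data.

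The 10 genes, the lists and the tests were chosen with earlier results of these data known. Named were all 10 genes; from each of 7 pathway lists the 2 genes of smallest p in each comparison and those called, up to 4; the most abundant gene of each of 15 marker lists, and every gene for thymocytes, thymic epithelium and B cells; and the 10 genes most correlated with the mean of the CD3 chains. Some genes that this rule names are not reported here. Other genes named were chosen after their values were seen. PBS and OVA/LPS/GGsTop share the replicate numbers 1 to 3. Libraries of the same number had correlated deviations from their group means (0.367, 0.427 and 0.428); the labels give no reason, and some libraries of different number correlated as well (0.637 at most).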

Additional observations from a re-analysis of the deposited data

Results flagged for a closer look

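In 58 groups of 4 libraries tested for a single library far from the others by Dixon's criterion, 7 were found, and chance alone flags about 1 group in 20. OVA/LPS/Vehicle 12 lay far above its group for Cd8a, at 15.999 FPKM beside 0.835 to 2.86, and for Cd8b1, at 21.1 FPKM beside 1.66 to 4.86. The same library lay far above the others in the summed level of thymocyte genes, at 24.1 FPKM beside 0.0784 to 0.380, and of thymic epithelium genes, at 11.5 FPKM beside 1.16 to 1.41. OVA/LPS/Vehicle 34 lay below its group for Icos, at 1.11 FPKM beside 1.96 to 2.07. In OVA/LPS/GGsTop, library 4 was low in the sum of dendritic cell genes, at 33.3 FPKM beside 49.9 to 50.7, and library 1 was high in the sum of thyroid and parathyroid genes, at 1.91 FPKM beside 0.183 to 0.286.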

How the results depend on the processing

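Of 973 values recomputed under the alternatives, 880 kept their direction and side of the threshold or stayed close, 53 changed sign, 39 counts moved by more than 1.5 times and 1 gained a call, Icos in OVA/LPS/Vehicle against PBS without PBS 2. The cause of these shifts was not tested. For OVA/LPS/Vehicle against PBS, 5327 genes were called, 3001 with the GC correction and 1680 with it and without the 3 Glycam1 libraries. For OVA/LPS/GGsTop relative to OVA/LPS/Vehicle the 1220 became 2181 with equal FPKM totals, 781 with median-of-ratios scaling, 313 with the GC correction, 5214 with array weights, 3525 with only the 2 groups fitted, and 0 without the 3 libraries, with and without the GC correction. For OVA/LPS/GGsTop against PBS the 403 became 208 without a filter, 609 with the GC correction, 2557 with array weights, 39 with only the 2 groups, 759 without the 3 libraries and 853 when these were corrected for GC content. In the 6 same-numbered libraries alone this comparison gave 95 calls with the replicate block and 14 without it, and 413 and 36 with the GC correction added. Equal FPKM totals moved the share of higher calls from 41.9, 79.2 and 71.5% in the 3 comparisons to 21.2, 92.9 and 50.7%, and the median of all genes from -0.015, 0.031 and 0.0069 to -0.15, 0.11 and -0.057; median-of-ratios scaling gave 48.3, 57.4 and 73.2%.

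Leaving out 1 library gave 3064 (without PBS 3) to 6440 (without PBS 2) calls for OVA/LPS/Vehicle against PBS, 24 (without OVA/LPS/GGsTop 1) to 3591 (without PBS 3) for OVA/LPS/GGsTop relative to OVA/LPS/Vehicle, and 29 (without PBS 1) to 1597 (without PBS 2) for OVA/LPS/GGsTop against PBS, and 0 to 1 calls of T cell genes in the first. Log2 fold changes then ranged, for OVA/LPS/Vehicle against PBS, over -0.34 to 0.21 for Cd3d, -0.30 to 0.22 for Cd3e, -0.21 to 0.47 for Cd4, -0.20 to 0.90 for Cd8a and -0.33 to 0.38 for Lck. For OVA/LPS/GGsTop against PBS they ranged over -0.30 to 0.12 for Cd28, -0.38 to 0.10 for Cd3g, -0.19 to 0.055 for Foxp3 and -0.18 to 0.37 for Icos. Differences of ratios ranged over -0.132 to 0.0187 for Cd28 to Cd3e and -0.109 to 0.293 for Icos to Cd3e (OVA/LPS/GGsTop relative to OVA/LPS/Vehicle) and over -0.817 to 0.0739 for Cd4 to Cd8a (OVA/LPS/Vehicle against PBS).

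Signs of T cell genes also changed for OVA/LPS/Vehicle against PBS with median-of-ratios scaling (Cd3d 0.0021, Cd3e 0.0025), the GC correction (Cd3d 0.023, Cd3g -0.032, Cd28 -0.15), equal FPKM totals (Lck -0.083), without the 3 libraries (Cd4 -0.17, Cd8a -0.081, Lck -0.47) and without them after GC correction (Cd3g -0.33, Cd4 -0.030, Cd8a -0.20, Lck -0.19, Cd28 -0.47). For OVA/LPS/GGsTop relative to OVA/LPS/Vehicle they changed without the 3 libraries (Cd3e 0.057, Cd4 0.10, Lck 0.042, Cd28 0.065, the ratio Icos to Cd3e -0.306) and without them after GC correction (Cd3e 0.25, Cd3g 0.17, Cd4 0.025, Cd8a 0.048, Cd28 0.39, Icos 0.12). For OVA/LPS/GGsTop against PBS they changed with array weights (Cd3g 0.071, Cd4 0.068, Cd28 0.00055), without the 3 libraries (Cd3g 0.10, Cd28 0.12, Foxp3 0.055) and with the GC correction (Icos -0.0066). The replicate block moved no call of a T cell gene. Depth limits Foxp3 most, at 12 to 62 fragments a library.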
